A study of Mus musculus with 18 samples.

Results

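Transcripts of 9 chemokine receptor genes, Ccr1, Ccr2, Ccr4, Ccr6, Cxcr3, Cxcr4, Cxcr5, Cxcr6 and Cx3cr1, were followed in CD3+ tumor-infiltrating T cells. The genes were taken by symbol from a table of 37236 genes, and all 9 were found. They were chosen with earlier results of these data known. The samples came from C57BL/6 mice, either wild-type (Nr2f6+/+) or carrying a germline deletion of Nr2f6 (Nr2f6-/-), an orphan nuclear receptor that acts as a transcriptional repressor in T cells. Every mouse had received 500000 B16-OVA cells under the skin, a melanoma line that expresses ovalbumin, and was given 0.5 mg of the PD-L1-blocking antibody 10F.9G2 (αPD-L1) or the control antibody LTF-2 (IgG2b) repeatedly from day 3. Tumors were taken on day 14, and for tumor induction in general the study's methods give an age of 8 to 12 weeks. Each IgG2b group had 3 samples and each αPD-L1 group 6, so that 18 samples were compared. The knockout was germline, so cells other than T cells in the Nr2f6-/- hosts lacked the gene as well.

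Chemokine receptors are G protein-coupled receptors that steer leukocytes along gradients of small secreted chemokines. On binding a ligand they signal through inhibitory G proteins to Rac, Rap and PI3 kinase, and arrestins then end the signal and take the receptor into the cell. In T cells of a tumor, Cxcr3 and its interferon-induced ligands are known for entry of effector cells, and Cxcr6 and its ligand Cxcl16 for positioning and survival of effector and resident CD8+ cells. Ccr4 is typical of regulatory and Th2 cells, Ccr6 of Th17 cells, Cxcr5 of follicular helper cells, and Ccr1 and Ccr2 are shared with monocytes and macrophages. Cx3cr1 marks differentiated cytotoxic T cells and many myeloid cells, and Cxcr4, the receptor for Cxcl12, is found on most leukocytes.

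The libraries held 12473391 to 18609482 reads on genes, and 3 reads, the level below which a gene is here called not detected, were worth 2.46 to 3.64 normalized counts depending on the library. Levels are given as normalized counts, which are reads on a gene divided by the size factor of the library. Nr2f6 itself was at 0 in all 9 Nr2f6-/- samples and between 20.2 and 201 normalized counts in the 9 Nr2f6+/+ samples. Libraries numbered 28 to 39 in the labels were taken here as a first set of 12, with 3 samples of each group. Those numbered 43 to 48 were taken as a second set of 6 that held only αPD-L1 samples. The labels do not say what the gap in the numbers stands for, and values within the sets are given where they bear on a result. T cell identity genes were present in every sample. The 8 T cell markers summed to 34598 to 40633 normalized counts in the Nr2f6+/+ IgG2b group, 40493 to 44967 in the Nr2f6-/- IgG2b group, 37680 to 59706 in the Nr2f6+/+ αPD-L1 group and 48320 to 56125 in the Nr2f6-/- αPD-L1 group. The 14 macrophage markers, none of them at 0 throughout, were not evenly spread despite the CD3+ sort. Their sum was 15923 to 20583 in the Nr2f6+/+ IgG2b group, 9607 to 13108 in the Nr2f6-/- IgG2b group, 1647 to 6648 in the Nr2f6+/+ αPD-L1 group and 1018 to 2624 in the Nr2f6-/- αPD-L1 group. In such bulk samples, fewer cells of a type and less RNA per cell cannot be told apart.

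Of the 9 genes, 6 lie on mouse chromosome 9, and Cxcr6, Ccr1 and Ccr2 share a stretch of 0.307 Mb (GRCm38). Cxcr6 (chr9:123806475-123811760, plus strand) lies within the span of Fyco1, a gene on the opposite strand (chr9:123789500-123851899). The strand setting of the counting is not given in the sources used here, but Fyco1 itself had at most 440 normalized counts in any sample. Ccr1 (chr9:123962124-123968692, minus strand), Ccr2 (chr9:124101950-124113557, plus strand), Ccr4 (chr9:114490316-114504916, minus strand), Ccr6 (chr17:8236043-8257141, plus strand), Cxcr3 (chrX:101731535-101734269, minus strand) and Cxcr4 (chr1:128588199-128592293, minus strand) overlap no other gene of the GENCODE annotation. Cxcr5 (chr9:44511787-44561877, minus strand) overlaps Bcl9l, and the longest Cx3cr1 model (chr9:119901616-120069879, minus strand) spans 9 other genes.

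Because NR2F6 is a nuclear receptor that binds DNA at the hexamer AGGTCA, the 250 bases before the RefSeq start sites (GRCm38.p6) were searched for AGGTCA on both strands. Promoters of 8 of the 9 genes were matched, as 9 windows since Ccr6 has 2 starts. AGGTCA was found in 1 of the 9 windows, that of the upstream Ccr6 start, against 4607 of all 32851 windows of this length. TGTGGT, the core bound by RUNX factors of T cells, was found in 4 of 9 windows (Ccr1, Cxcr3, Cxcr6 and Cx3cr1), against 4614 of 32851, and TCACAC, the core bound by T-box factors such as T-bet, in that of Cxcr3 alone, against 4039 of 32851. These matches are descriptions of letters, and no binding was measured. The windows of Cxcr6, the receptor with the smallest p below, and of Ccr6, the one with the hexamer, are printed 5′ to 3′ on the strand of the gene. The matched letters are in capitals.
Cxcr6 (chr9:123806227-123806476, plus strand, TGTGGT core on the opposite strand): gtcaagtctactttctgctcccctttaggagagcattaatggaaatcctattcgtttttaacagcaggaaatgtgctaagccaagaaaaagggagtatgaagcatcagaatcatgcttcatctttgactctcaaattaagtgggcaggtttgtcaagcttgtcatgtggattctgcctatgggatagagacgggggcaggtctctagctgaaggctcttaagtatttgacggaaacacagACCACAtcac
Ccr6 (chr17:8235793-8236042, plus strand, AGGTCA hexamer on the opposite strand): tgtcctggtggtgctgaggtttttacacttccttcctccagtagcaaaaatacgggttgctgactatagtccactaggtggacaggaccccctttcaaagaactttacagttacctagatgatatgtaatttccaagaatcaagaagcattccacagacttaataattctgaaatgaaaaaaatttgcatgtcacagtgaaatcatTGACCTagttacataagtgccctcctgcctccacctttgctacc

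None of the 9 receptors passed the threshold of an adjusted p under 0.05 in any comparison. The test was limma on log2(normalized count + 1), fitted on the 11992 genes averaging 10 or more normalized counts and adjusted over all of them by the Benjamini-Hochberg method. All 9 receptors passed that filter. The difference with the smallest p was that of Cxcr6, whose mean was highest in the samples that combined Nr2f6 loss with αPD-L1, and the low-level receptors Ccr1, Ccr4 and Ccr6 had their lowest means in the same group.

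**Figure D1:**
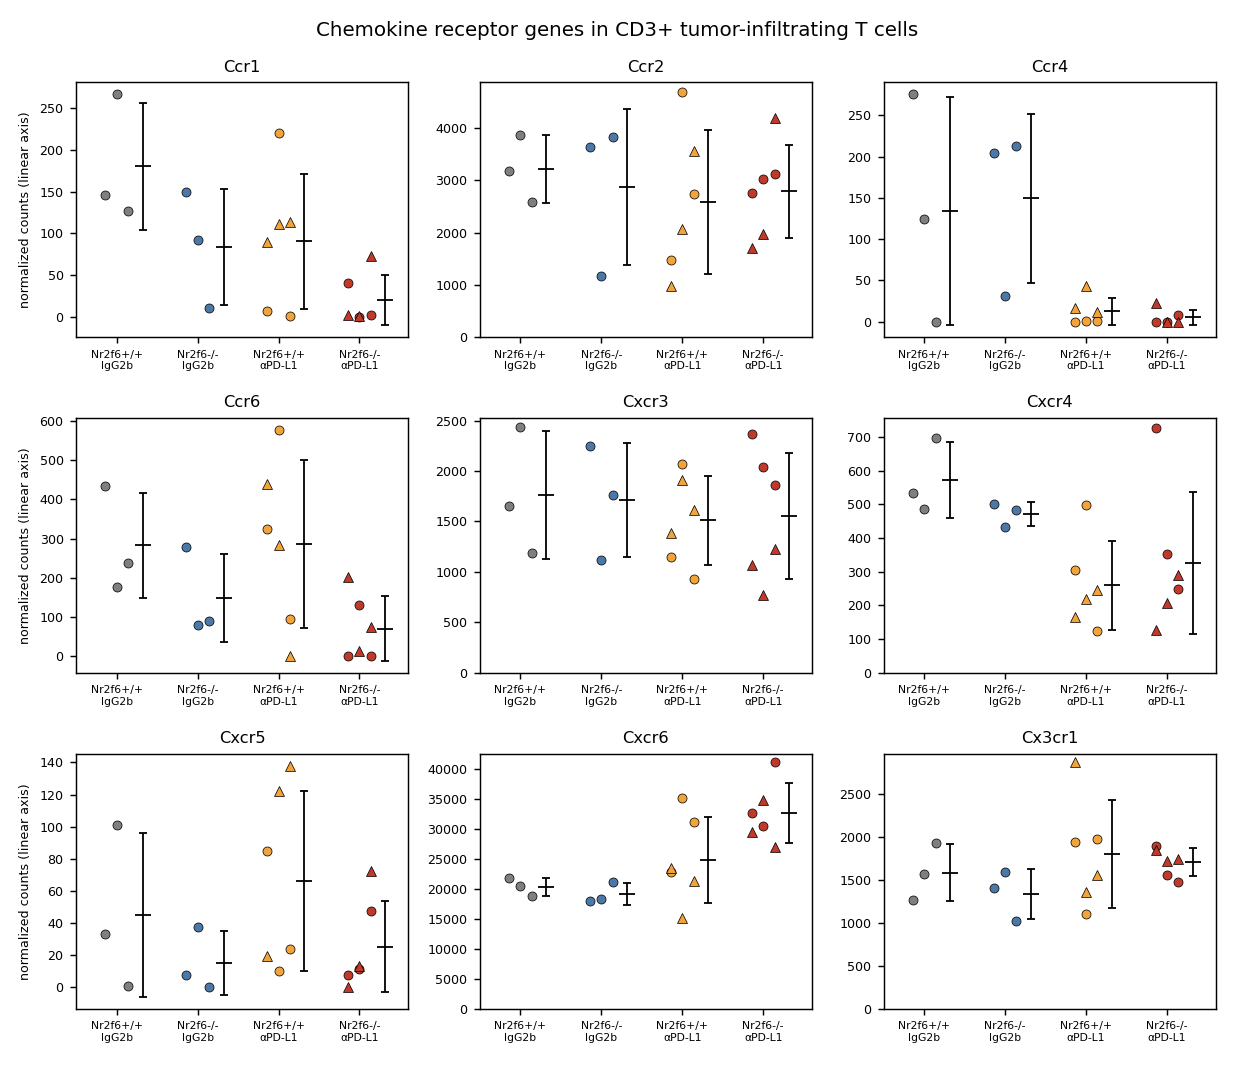
Normalized counts of each receptor gene (linear axis from 0, a separate scale for each gene) in every sample of the 4 groups, with circles for the first library set, triangles for the second, and the mean ± SD to the right of each group. All 6 Nr2f6-/- αPD-L1 samples lie above all 6 IgG2b samples for Cxcr6, while Ccr2, Cxcr3 and Cx3cr1 overlap between all groups.

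Cxcr6 was measured on 18386 to 38665 reads in each sample. In the Nr2f6+/+ IgG2b group it had 21691, 20362 and 18697 normalized counts, and in the Nr2f6-/- IgG2b group 17916, 18218 and 21153. The Nr2f6+/+ αPD-L1 samples ran from 15104 through a median of 23072 to 35133. The Nr2f6-/- αPD-L1 samples ran from 26857 through a median of 31517 to 41137. Thus all 6 samples of the combination were higher than all IgG2b samples of either genotype, whereas the Nr2f6+/+ αPD-L1 samples reached below and above the IgG2b samples. The order of the means was Nr2f6-/- αPD-L1 (32554 ± 4995, SD, n = 6), Nr2f6+/+ αPD-L1 (24780 ± 7192, n = 6), Nr2f6+/+ IgG2b (20250 ± 1500, n = 3) and Nr2f6-/- IgG2b (19096 ± 1788, n = 3), and all neighbours in this order overlapped.

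With αPD-L1 compared with IgG2b in Nr2f6-/- mice, mean Cxcr6 was 1.7-fold higher, with a fitted log2 fold change of 0.76 (95% interval 0.35 to 1.17, limma adjusted p = 0.11). Without Nr2f6 loss the same treatment gave 0.24 (-0.16 to 0.65, limma adjusted p = 0.869). The difference between these responses was 0.52 on the log2 scale (-0.06 to 1.09, limma adjusted p = 0.974), so the receptor's response to αPD-L1 was not shown to differ between the genotypes. Between genotypes, Cxcr6 under αPD-L1 was 0.43 higher in Nr2f6-/- samples (0.10 to 0.76, limma adjusted p = 0.358), and under IgG2b the log2 difference was -0.09 (-0.55 to 0.38, limma adjusted p = 1). The combination exceeded Nr2f6+/+ IgG2b by 0.67 (0.27 to 1.08, limma adjusted p = 0.136).

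The call on Cxcr6 depended on the model. DESeq2 on the recovered reads, the tool that the study names, gave 0.77 for αPD-L1 in Nr2f6-/- mice (adjusted p = 0.00682) and 0.68 for the combination (adjusted p = 0.0308), whereas edgeR gave adjusted p = 0.146 and 0.195. With the library set as a term, limma gave 0.95 (adjusted p = 0.017) and 0.86 (adjusted p = 0.0189). Within the first set alone, which holds all IgG2b samples, the values were 0.85 (limma adjusted p = 0.118) and 0.77 (limma adjusted p = 0.0779).

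The library sets differed most in the Nr2f6+/+ αPD-L1 group, where Cxcr6 averaged 29644 ± 6310 (SD, n = 3) in the first set and 19915 ± 4303 (n = 3) in the second. In the Nr2f6-/- αPD-L1 group the averages were 34723 ± 5656 and 30384 ± 4033. As a result the genotype difference under αPD-L1 was 0.24 within the first set and 0.63 within the second, with limma adjusted p = 0.683 and 0.74.

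Over the 18 samples, Cd8b1, which encodes the beta chain of the CD8 coreceptor, was the gene whose log2 level followed that of Cxcr6 most closely (Pearson r = 0.88, Spearman rho = 0.8, and r = 0.81 without the 2 samples farthest from the median). The r was 0.89 after group means were removed. Next came Ikzf3, a lymphocyte transcription factor, with r = 0.85, and Nkg7, a cytotoxic granule protein, with r = 0.84. These values describe 18 libraries that share group structure and are given without a test.

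The T cell and CD8 marker sums, like Cxcr6, were highest on average in the combination. Between the IgG2b groups they did not move with Cxcr6. With Nr2f6 loss the mean T cell sum was 42721 against 36996 and the mean CD8 sum 24175 against 20329, while mean Cxcr6 was 19096 against 20250. The sum of the 8 T cell markers was higher in all 6 combination samples than in all IgG2b samples. In the combination against Nr2f6+/+ IgG2b, 0 of the 8 passed the test by limma (0.617% of all genes). An unadjusted p under 0.05 was reached by 6 of the 8 (9.04% of all genes). The sum of Cd8a and Cd8b1 was 18935 to 21884 in the Nr2f6+/+ IgG2b group, 22095 to 25416 in the Nr2f6-/- IgG2b group, 12805 to 34822 in the Nr2f6+/+ αPD-L1 group and 28388 to 40404 in the Nr2f6-/- αPD-L1 group. Per unit of that sum, Cxcr6 was 0.93 to 1.08 in Nr2f6+/+ IgG2b, 0.717 to 0.846 in Nr2f6-/- IgG2b, 0.892 to 1.39 in Nr2f6+/+ αPD-L1 and 0.861 to 1.05 in Nr2f6-/- αPD-L1 samples. Relative to the CD8 markers, the combination samples therefore overlapped the Nr2f6+/+ IgG2b samples but still lay above all 3 Nr2f6-/- IgG2b samples. CD4+ and CD8+ cells had been isolated on beads and pooled before the sort, and the part of their proportion, or of the T cell share of the RNA, in the Cxcr6 values was not tested.

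**Figure D2:**
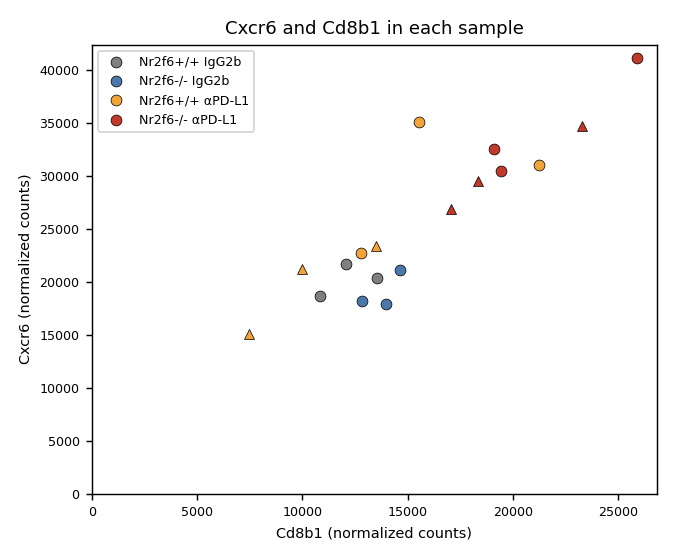
Cxcr6 against Cd8b1, both in normalized counts on linear axes from 0, one point per sample, colored by group, with circles for the first library set and triangles for the second. Samples with more Cd8b1 tended to have more Cxcr6 (Pearson r = 0.88 on the log2 scale, 18 samples), and the Nr2f6+/+ αPD-L1 sample with the least Cd8b1 had the least Cxcr6.

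Cxcr3, the receptor for Cxcl9 and Cxcl10, overlapped between all groups. It had 1658, 2440 and 1186 normalized counts with IgG2b in Nr2f6+/+ mice and 2246, 1120 and 1759 in Nr2f6-/- mice. With αPD-L1 it ran from 926 through 1501 to 2074 in Nr2f6+/+ and from 770 through 1543 to 2365 in Nr2f6-/- mice. Its fitted log2 fold changes were -0.21 (-0.89 to 0.46) for αPD-L1 in Nr2f6+/+ mice and -0.19 (-0.86 to 0.49) in Nr2f6-/- mice, and -0.04 and -0.01 for Nr2f6 loss with IgG2b and with αPD-L1. For the combination it was -0.22 (-0.90 to 0.45). The Nr2f6-/- αPD-L1 samples separated by library set, with 1861 to 2365 in the first and 770 to 1225 in the second. The effect of Nr2f6 loss under αPD-L1 was accordingly 0.68 within the first set and -0.69 within the second, and neither passed the test.

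Cx3cr1, the receptor for the membrane-bound chemokine Cx3cl1, overlapped between all groups as well. With IgG2b it had 1262, 1567 and 1930 normalized counts in Nr2f6+/+ and 1402, 1596 and 1020 in Nr2f6-/- samples. With αPD-L1 it ran from 1099 through 1751 to 2878 in Nr2f6+/+ samples and from 1476 through 1736 to 1899 in Nr2f6-/- samples. The Nr2f6-/- αPD-L1 samples were the most even, with an SD of 165 against 626 in the Nr2f6+/+ αPD-L1 group. The 95% intervals of the log2 fold change reached at most 0.90 for an increase and -0.86 for a decrease in the 5 comparisons plotted, so changes beyond that size lay outside them.

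Ccr2, the receptor for Ccl2, Ccl7 and Ccl12, had 3179, 3874 and 2589 normalized counts in Nr2f6+/+ IgG2b samples and 3633, 1160 and 3838 in Nr2f6-/- IgG2b samples. It ran from 969 through 2400 to 4689 in Nr2f6+/+ αPD-L1 and from 1701 through 2891 to 4187 in Nr2f6-/- αPD-L1 samples. All groups overlapped, and the lowest and the highest sample of all both belonged to the Nr2f6+/+ αPD-L1 group. Log2 fold changes were -0.49 (-1.26 to 0.29) for αPD-L1 in Nr2f6+/+ mice, 0.08 (-0.70 to 0.86) in Nr2f6-/- mice, -0.33 and 0.24 for Nr2f6 loss with IgG2b and αPD-L1, and -0.25 for the combination. The Ccr2 ranges of the αPD-L1 and IgG2b groups overlapped, and those of the macrophage marker sum did not. The part of macrophage RNA in the Ccr2 values was not tested. The genes nearest to Ccr2 by level were Ccdc59 (r = 0.88) and Cd84 (r = 0.83), but without the 2 samples farthest from the median these values were 0.72 and 0.68.

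Cxcr4, the receptor for Cxcl12, had lower means with αPD-L1 in both genotypes. It had 534, 485 and 698 normalized counts in Nr2f6+/+ IgG2b and 502, 433 and 482 in Nr2f6-/- IgG2b samples. With αPD-L1 it ran from 124 through 232 to 498 in Nr2f6+/+ and from 127 through 269 to 725 in Nr2f6-/- samples. In each genotype 1 αPD-L1 sample reached into or above the range of the IgG2b samples, and the others lay below it. Mean Cxcr4 was 2.21-fold lower with αPD-L1 in Nr2f6+/+ mice (log2 fold change -1.27, -2.32 to -0.21, unadjusted p = 0.0202, limma adjusted p = 0.572). In Nr2f6-/- mice the value was -0.75 (-1.80 to 0.30, limma adjusted p = 0.695). Nr2f6 loss gave -0.26 with IgG2b and 0.26 with αPD-L1, and the combination -1.01 (-2.06 to 0.04). Fth1, which encodes the ferritin heavy chain, was among the 3 genes closest to Cxcr4 (r = 0.82).

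Ccr1, which binds Ccl3, Ccl5, Ccl6 and Ccl9 and is typical of myeloid cells, was a low-level transcript. Nr2f6+/+ IgG2b samples had 146, 267 and 127 normalized counts, and Nr2f6-/- IgG2b samples 149, 91.4 and 10.4. Nr2f6+/+ αPD-L1 samples ran from 1.05 through 100 to 220, and Nr2f6-/- αPD-L1 samples from 0 through 2.21 to 72.2. In the combination 4 of 6 samples were under the 3-read floor, and all 6 lay below all 3 Nr2f6+/+ IgG2b samples. The combination differed from Nr2f6+/+ IgG2b by -4.78 on the log2 scale (-8.04 to -1.51, unadjusted p = 0.00559, limma adjusted p = 0.213), and mean levels by 9.11-fold. Nr2f6 loss under αPD-L1 gave -2.69 (-5.35 to -0.03, limma adjusted p = 0.51) and under IgG2b -1.66 (-5.43 to 2.11), and αPD-L1 gave -2.09 in Nr2f6+/+ and -3.11 in Nr2f6-/- mice. The macrophage marker sum was lowest in the same group as Ccr1, but the 2 did not share the order of all groups. Mean Ccr1 was 83.7 in Nr2f6-/- IgG2b and 90.3 in Nr2f6+/+ αPD-L1 samples, where the mean macrophage sum was 11125 and 3247. All 14 macrophage markers had a negative log2 fold change in the combination against Nr2f6+/+ IgG2b. Of the 14, 5 were past the threshold, where 0.459% of all genes were called lower. By mean normalized counts 13 of them were lower and 1, Mertk, was higher (27.6 against 4.98). The part of macrophage RNA in the Ccr1 values was not tested. The closest genes to Ccr1 over the 18 samples were Cd63, a lysosomal tetraspanin (r = 0.84), Ramp3 (r = 0.83) and Igfbp4 (r = 0.82).

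Ccr4, the receptor for Ccl17 and Ccl22, had its highest values in IgG2b samples. Nr2f6+/+ IgG2b samples had 276, 125 and 0 normalized counts, and Nr2f6-/- IgG2b samples 204, 31.1 and 213. Nr2f6+/+ αPD-L1 samples ran from 0 through 6.53 to 43.5, and Nr2f6-/- αPD-L1 samples from 0 through 0 to 23.0. All Nr2f6-/- αPD-L1 samples were below all Nr2f6-/- IgG2b samples, but in Nr2f6+/+ mice 1 IgG2b sample had no reads, so the groups overlapped there. αPD-L1 in Nr2f6-/- mice gave a log2 fold change of -5.50 (-9.08 to -1.93, unadjusted p = 0.00379, limma adjusted p = 0.231), and mean levels of 5.25 ± 9.33 against 149 ± 103 normalized counts. In Nr2f6+/+ mice the value was -2.47 (-6.04 to 1.11) and in the combination -3.73 (-7.30 to -0.15, limma adjusted p = 0.52). Nr2f6 loss gave 1.78 with IgG2b and -1.26 with αPD-L1, with intervals that held 0. Since 7 of 12 αPD-L1 samples were under the 3-read floor, the size of these fitted values depends on the constant added before taking logarithms. Regulatory T cell markers were set beside Ccr4 for αPD-L1 in Nr2f6-/- mice. Of these, 0 of 4 passed the test by limma (0.325% of all genes) and 1 had an unadjusted p under 0.05 (9.7%). This was Il2ra, the alpha chain of the interleukin-2 receptor, with 1141 to 1485 normalized counts in Nr2f6-/- IgG2b and 422 to 936 in Nr2f6-/- αPD-L1 samples. The Il2ra ranges did not overlap, as for 5.12% of all genes (log2 fold change -0.95, -1.74 to -0.16, limma adjusted p = 0.394). Foxp3, the regulatory T cell factor, had 836, 518 and 791 normalized counts in Nr2f6-/- IgG2b samples and ran from 184 through 602 to 910 in Nr2f6-/- αPD-L1 samples. The Foxp3 groups overlapped, as did the sum of the 4 markers, at 4394 to 6105 and 3234 to 6684. The other markers, Ikzf2 and Ikzf4, overlapped as well. Their means were 2925 and 496 normalized counts in Nr2f6-/- IgG2b samples and 2872 and 541 in Nr2f6-/- αPD-L1 samples. The part of regulatory T cell RNA in the Ccr4 values was not tested.

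Ccr6, the receptor for Ccl20, had 433, 177 and 239 normalized counts in Nr2f6+/+ IgG2b and 279, 79.2 and 89.5 in Nr2f6-/- IgG2b samples. It ran from 0 through 304 to 577 in Nr2f6+/+ αPD-L1 and from 0 through 44.3 to 201 in Nr2f6-/- αPD-L1 samples. The Nr2f6-/- samples were lower on average under both antibodies, but both pairs of groups overlapped. Nr2f6 loss gave -1.06 with IgG2b (-5.05 to 2.92) and -2.71 with αPD-L1 (-5.53 to 0.11, unadjusted p = 0.0593, limma adjusted p = 0.536). αPD-L1 gave -1.2 in Nr2f6+/+ and -2.85 in Nr2f6-/- mice, and the combination -3.91 (-7.37 to -0.46, limma adjusted p = 0.439). Since 3 samples had no reads, the size of these fitted values depends on the constant added before taking logarithms. Mean levels in Nr2f6+/+ mice were 287 with αPD-L1 and 283 with IgG2b, and the mean of the combination was 4.03-fold below the latter. Within the first library set, where 2 Nr2f6-/- αPD-L1 samples had no reads, the genotype difference under αPD-L1 was -5.69. Within the second, where 1 Nr2f6+/+ αPD-L1 sample had no reads, it was 0.28. The size of both values depends on the constant added as well. Of transcripts typical of Th17 cells, Il17f reached at most 17.3 normalized counts, Il23r had no read in any sample, and Il17a was detected in 1 Nr2f6-/- IgG2b sample only, with 122.

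Cxcr5, the receptor for Cxcl13, was detected in some samples of each group. Nr2f6+/+ IgG2b samples had 33.4, 101 and 0.829 normalized counts, and Nr2f6-/- IgG2b samples 7.61, 37.7 and 0. Nr2f6+/+ αPD-L1 samples ran from 10.2 through 54.3 to 138, and Nr2f6-/- αPD-L1 samples from 0 through 12.4 to 72.2. All groups overlapped. Log2 fold changes were 1.28 (-2.0 to 4.56) and 0.93 (-2.35 to 4.21) for αPD-L1 in Nr2f6+/+ and Nr2f6-/- mice, -1.42 (-5.21 to 2.37) and -1.77 (-4.45 to 0.91) for Nr2f6 loss with IgG2b and αPD-L1, and -0.49 for the combination. With this spread between samples, the intervals held decreases of several-fold. They also held increases of several-fold, except the interval for Nr2f6 loss with αPD-L1, which ended at 0.91.

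**Figure D3:**
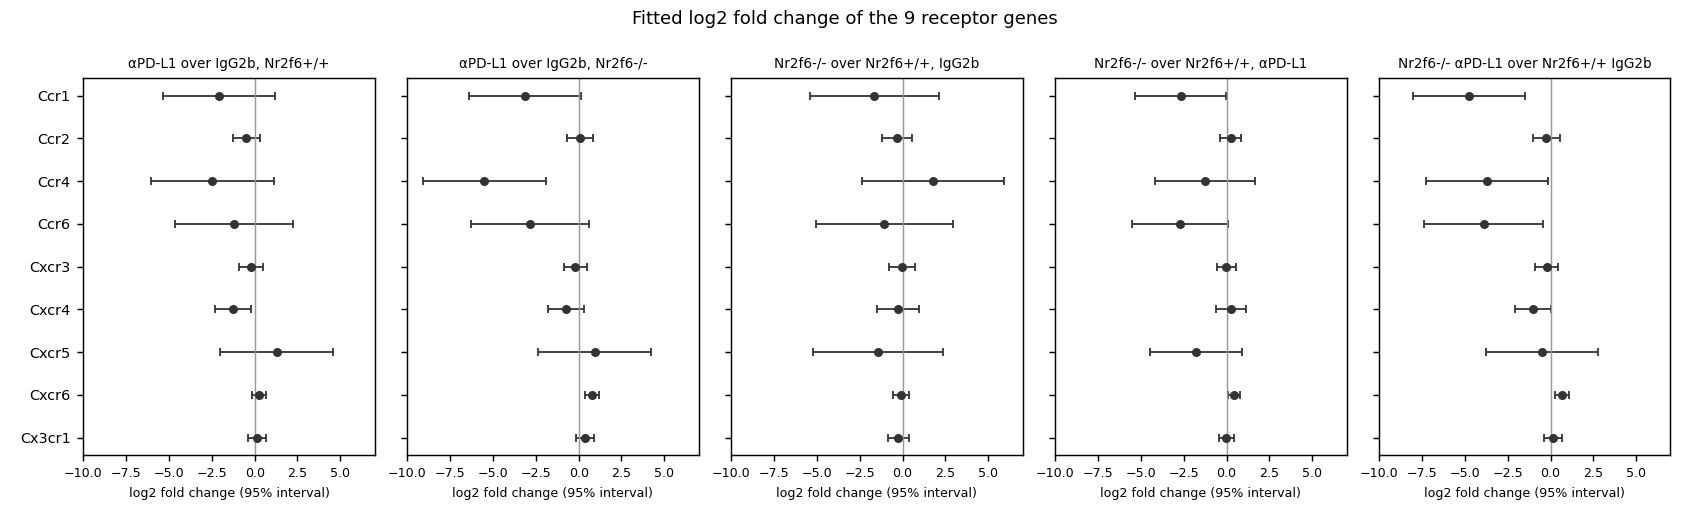
Fitted log2 fold change of each receptor gene with its 95% interval (limma on log2(normalized count + 1), 18 samples) in 5 comparisons, on one common axis, with a vertical line at no change. Intervals are narrow for Cxcr6, Cxcr3, Ccr2 and Cx3cr1 and wide for Ccr1, Ccr4, Ccr6 and Cxcr5, and those of Cxcr6 exclude 0 in the 3 comparisons of Nr2f6-/- αPD-L1 with another group.

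The counts of receptors were read against the share of all genes that met the same rule. For αPD-L1 in Nr2f6+/+ mice, 0 of 9 passed by limma (0.242% of all genes), edgeR (0.158%) or DESeq2 (0.801%). Of the 9, 1 (Cxcr4) had an unadjusted p under 0.05 (7.24% of all genes), and 0 did not overlap between groups (4.54%). For αPD-L1 in Nr2f6-/- mice, 0 of 9 passed by limma (0.325% of all genes) and edgeR (0.3%) and 1, Cxcr6, by DESeq2 (1.96%). Of the 9, 2 (Ccr4 and Cxcr6) had an unadjusted p under 0.05 (9.7%), and 2 (Ccr4 and Cxcr6) did not overlap between groups (5.12%). For Nr2f6 loss with IgG2b, 0 of 9 passed by limma (0% of all genes), edgeR (0%) or DESeq2 (0.75%), 0 had an unadjusted p under 0.05 (5.35%), and 0 did not overlap (14.2%). For Nr2f6 loss with αPD-L1, 0 of 9 passed by limma (0.175%), edgeR (0.183%) or DESeq2 (1.57%), 2 (Ccr1 and Cxcr6) had an unadjusted p under 0.05 (9.73%), and 0 did not overlap (0.592%).

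For the combination against Nr2f6+/+ IgG2b, 0 of 9 passed by limma (0.617% of all genes) and edgeR (0.342%) and 1, Cxcr6, by DESeq2 (1.51%). Of the 9, 4 had an unadjusted p under 0.05 (Ccr1, Ccr4, Ccr6 and Cxcr6, 9.04% of all genes), and 2 (Ccr1 and Cxcr6) did not overlap (6.17%). For Nr2f6 loss alone against αPD-L1 alone, 0 of 9 passed by limma (0.459%), edgeR (0.384%) or DESeq2 (2.39%), and 0 did not overlap (5.36%). Of the 9, 1 had an unadjusted p under 0.05 (11.2%), namely Ccr4, with a log2 fold change of 4.25 (0.67 to 7.82, limma adjusted p = 0.331). For the difference of the αPD-L1 responses between genotypes, 0 of 9 passed by limma (0%), edgeR (0%) or DESeq2 (0.648%), and 0 had an unadjusted p under 0.05 (4.97%). These comparisons share samples. The median log2 fold change of the 9 was -0.49, -0.19, -0.26, -0.01 and -0.49 in the 5 comparisons plotted, in their order, against -0.10, -0.04, -0.06, 0.00 and -0.12 over all genes tested.

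The ligand genes were tested in the same fit. Of 19 listed, 18 were in the table and 15 passed the filter. Ccl5, which binds Ccr1 among others and is made by cytotoxic T cells, had 36841, 50158 and 34623 normalized counts in Nr2f6+/+ IgG2b and 48717, 36092 and 58105 in Nr2f6-/- IgG2b samples. It ran from 25409 through 41763 to 111441 in Nr2f6+/+ αPD-L1 and from 108648 through 126870 to 157300 in Nr2f6-/- αPD-L1 samples. Every Nr2f6-/- αPD-L1 sample but the lowest exceeded all others, that one lying just under the highest Nr2f6+/+ αPD-L1 sample. Ccl5 rose with αPD-L1 in Nr2f6-/- mice (log2 fold change 1.46, 0.91 to 2.02, limma adjusted p = 0.0109) and with Nr2f6 loss under αPD-L1 (1.51, 1.06 to 1.97, limma adjusted p = 0.000732). The difference of the αPD-L1 responses was 1.29 (0.50 to 2.08, limma adjusted p = 0.959). The call with αPD-L1 in Nr2f6-/- mice was lost without Nr2f6-/- IgG2b replicate 1 (1.49, limma adjusted p = 0.0653) or replicate 2 (1.28, limma adjusted p = 0.117). Within the library sets the effect of Nr2f6 loss under αPD-L1 was 1.23 and 1.80 (limma adjusted p = 0.115 and 0.45).

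In the combination against Nr2f6+/+ IgG2b, 3 ligand genes passed the test as higher and 3 as lower. These were among the 15 tested, where 0.158% and 0.459% of all genes did so. Ccl5 rose by 1.69, and Ccl3 and Ccl4, related inflammatory chemokines, by 1.21 and 1.52 (limma adjusted p = 0.00186, 0.0343 and 0.0184). Ccl2 and Ccl12, ligands of Ccr2, gave -5.29 and -7.59, and Ccl6, a ligand of Ccr1, -4.20 (limma adjusted p = 0.0092, 0.0154 and 2.4e-05). Ccl12 was under the 3-read floor in 5 of 6 combination samples, so its fitted value depends on the constant added. Ccl6 had 4926 to 6891 normalized counts in Nr2f6+/+ IgG2b samples and 51.9 to 541 in the combination. Ccl6, Ccl2 and Ccl12 also fell with αPD-L1 in Nr2f6-/- mice (-3.53, -4.99 and -7.69), where 0.325% of all genes passed. In Nr2f6+/+ mice Ccl6 alone of the 15 passed the test (-3.42, limma adjusted p = 0.000674), where 0.242% of all genes passed. A negative log2 fold change with αPD-L1 was seen for 10 of the 15 in Nr2f6+/+ and 12 in Nr2f6-/- mice. An unadjusted p under 0.05, in either direction, was reached by 9 (7.24% of all genes) and 10 (9.7%). With Nr2f6 loss alone against αPD-L1 alone, Ccl6 (2.75) and Ccl9 (1.86) were higher, where 0.459% of all genes passed. With Nr2f6 loss under IgG2b none of the 15 passed by limma (0% of all genes), and 1 had an unadjusted p under 0.05 (5.35%). The macrophage marker sum was lower with αPD-L1 as well, and its part in the fall of Ccl2, Ccl6 and Ccl12 was not tested.

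Single samples decided several of the ligand calls, although none changed direction. For the combination, Ccl2 was not called without Nr2f6+/+ IgG2b replicate 1, 2 or 3 (-5.38, -5.51 and -4.97, limma adjusted p = 0.0612, 0.0761 and 0.102), nor was Ccl12 (-7.54, -7.61 and -7.61, limma adjusted p = 0.103, 0.128 and 0.102). Ccl4 was not called without Nr2f6+/+ IgG2b replicate 1 (1.55, limma adjusted p = 0.0908) or 2 (1.21, limma adjusted p = 0.312). Ccl3 was not called without Nr2f6+/+ IgG2b replicate 2 (1.26, limma adjusted p = 0.169) or 3 (0.86, limma adjusted p = 0.375), nor without Nr2f6-/- αPD-L1 replicate 1, 2, 3, 4 or 5 (1.14 to 1.2, limma adjusted p = 0.0631 to 0.0885). For αPD-L1 in Nr2f6-/- mice, Ccl2 was not called without Nr2f6-/- IgG2b replicate 1, 2 or 3 (-4.63, -5.31 and -5.03, limma adjusted p = 0.179, 0.0921 and 0.112) or Nr2f6-/- αPD-L1 replicate 5 (-4.66, limma adjusted p = 0.0525). Ccl12 was not called there without Nr2f6-/- IgG2b replicate 1, 2 or 3 (-7.54, -7.52 and -8.00, limma adjusted p = 0.117, 0.113 and 0.0826). For Nr2f6 loss alone against αPD-L1 alone, Ccl6 was not called without Nr2f6-/- IgG2b replicate 2 or 3 (2.73 and 2.52, limma adjusted p = 0.0646 and 0.0855). Ccl9 was not called there without Nr2f6-/- IgG2b replicate 1, 2 or 3 (2.07, 1.51 and 1.99, limma adjusted p = 0.0656, 0.238 and 0.0926) or Nr2f6+/+ αPD-L1 replicate 2 (1.90, limma adjusted p = 0.0501). Ccl6 under αPD-L1 in either genotype, and Ccl5 and Ccl6 in the combination, were called whichever sample was left out.

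All IgG2b samples belong to the first library set, and with the set as a term some ligand calls were lost as well. For αPD-L1 in Nr2f6-/- mice, Ccl2 gave -4.18 with the set term (limma adjusted p = 0.0941) and with the replicate block (limma adjusted p = 0.0541). Ccl12 gave -7.45 in both (limma adjusted p = 0.0534 and 0.0592) and -7.27 within the first set alone (limma adjusted p = 0.0905). Ccl5 gave 1.51 there within the first set alone (limma adjusted p = 0.113). For the combination, Ccl4 gave 1.18 with the set term and with the block (limma adjusted p = 0.0634 and 0.0602) and 1.34 within the first set alone (limma adjusted p = 0.0735). Ccl3 was not called within the first set alone (1.43, limma adjusted p = 0.0692), by edgeR (1.18, adjusted p = 0.11), after quantile normalization (1.14, limma adjusted p = 0.0592) or with equal totals (1.13, limma adjusted p = 0.0694). For Nr2f6 loss alone against αPD-L1 alone, Ccl9 was not called with the block (2.04, limma adjusted p = 0.0837). With only the compared groups in the fit, Ccl6 (limma adjusted p = 0.0773) and Ccl2 (0.31) under αPD-L1 in Nr2f6-/- mice, Ccl2 (0.133), Ccl3 (0.0886) and Ccl4 (0.0517) in the combination and Ccl9 (0.191) were not called. With no filter on low values, limma adjusted p was 0.06 to 0.132 for Ccl2, Ccl3, Ccl4, Ccl9 and Ccl12, 0.0679 for Ccl5 under αPD-L1 in Nr2f6-/- mice and 0.0694 for Ccl6 with Nr2f6 loss alone against αPD-L1 alone. With a filter at a mean of 50, Ccl12 under αPD-L1 in Nr2f6-/- mice was not called (limma adjusted p = 0.0567).

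**Figure D4:**
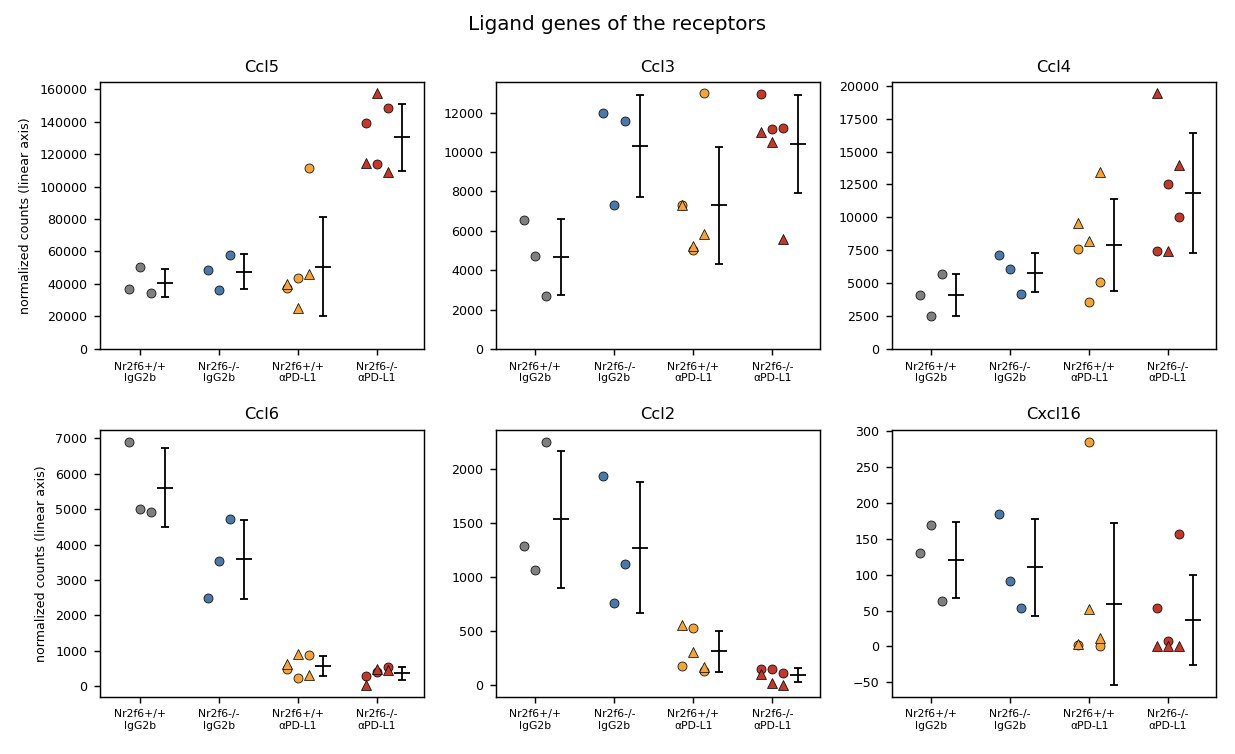
Normalized counts of 6 ligand genes (linear axis, a separate scale for each gene) in every sample, with circles for the first library set, triangles for the second, and the mean ± SD beside each group. Ccl5 was highest in Nr2f6-/- αPD-L1 samples (108648 to 157300), and Ccl6 and Ccl2 were lower in the αPD-L1 groups than in the IgG2b groups.

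For several receptors the ligand was scarce or not detected in these samples, where a count of 0 reads allows up to 3 reads. Ccl20 and Cxcl12, the ligands of Ccr6 and Cxcr4, had no read in any of the 18 samples. Ccl17 and Ccl22, the ligands of Ccr4, reached at most 66.8 and 81.7 normalized counts. Cxcl16, the ligand of Cxcr6, had 130, 169 and 63.8 normalized counts in Nr2f6+/+ IgG2b and 185, 91.4 and 54.1 in Nr2f6-/- IgG2b samples. With αPD-L1 it ran from 0 through 7.43 to 285 in Nr2f6+/+ and from 0 through 3.91 to 157 in Nr2f6-/- samples. Its log2 fold change in the combination was -4.12 (-7.72 to -0.52, limma adjusted p = 0.429), opposite in sign to that of its receptor. In the combination 3 of 6 samples were under the 3-read floor, so this fitted value depends on the constant added. Mean Cxcl16 was 36.4 normalized counts there against 121 in Nr2f6+/+ IgG2b samples. The part of macrophage RNA in the Cxcl16 values was not tested. Only transcripts of sorted cells were measured, so ligands made elsewhere in the tumor are not seen here. Cxcl9 and Cxcl10, the ligands of Cxcr3, were detected in every sample, at 58.1 to 872 and 21.1 to 1074 normalized counts.

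Of 15 further chemokine receptor genes, 8 passed the filter and none passed the test by limma in any comparison. An unadjusted p under 0.05 was reached by 1 of 8 for αPD-L1 in Nr2f6+/+ mice (7.24% of all genes), 2 in Nr2f6-/- mice (9.7%) and 3 in the combination (9.04%). It was reached by 0 for Nr2f6 loss with IgG2b (5.35%), 1 with αPD-L1 (9.73%), 2 for Nr2f6 loss alone against αPD-L1 alone (11.2%) and 0 for the difference of responses (4.97%). Ccr7, the receptor of naive and central memory T cells, had 715, 1265 and 1352 normalized counts in Nr2f6+/+ IgG2b and 649, 724 and 1352 in Nr2f6-/- IgG2b samples. It ran from 108 through 489 to 685 in Nr2f6+/+ αPD-L1 and from 212 through 534 to 588 in Nr2f6-/- αPD-L1 samples. All 12 αPD-L1 samples lay below all IgG2b samples, except that 2 Nr2f6+/+ αPD-L1 samples, at 685 and 651, exceeded the lowest Nr2f6-/- IgG2b sample. The log2 fold change with αPD-L1 was -1.45 (-2.43 to -0.47, limma adjusted p = 0.363) in Nr2f6+/+ mice and -1.0 (-1.99 to -0.02, limma adjusted p = 0.501) in Nr2f6-/- mice. Ccrl2, a nonsignaling relative that binds chemerin, had group means of 412 to 502 normalized counts.

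Of 26 genes that carry the receptors' signals, all passed the filter and 2 passed the test, 1 for Nr2f6 loss under αPD-L1 (0.175% of all genes) and 1 for Nr2f6 loss alone against αPD-L1 alone (0.459%). Arrb1, which encodes an arrestin, fell with Nr2f6 loss under αPD-L1 (log2 fold change -2.19, -3.12 to -1.25, limma adjusted p = 0.0318). It ran from 529 through 960 to 1841 normalized counts in Nr2f6+/+ αPD-L1 and from 53.9 through 244 to 540 in Nr2f6-/- αPD-L1 samples, so the ranges met at the lowest of the one group and the highest of the other. The Arrb1 call was lost without Nr2f6-/- αPD-L1 replicate 1, 2 or 3 (-1.79, -2.21 and -2.0, limma adjusted p = 0.0865, 0.0753 and 0.0855) or Nr2f6+/+ αPD-L1 replicate 4, 5 or 6 (-2.14, -2.01 and -2.05, limma adjusted p = 0.0876, 0.121 and 0.0708). Within the first and second library set Arrb1 gave -2.51 and -1.87 (limma adjusted p = 0.0717 and 0.514), and it was not called by edgeR (-1.95, adjusted p = 0.0641), with only the compared groups (limma adjusted p = 0.211) or with no filter (limma adjusted p = 0.152). Gnai3, an inhibitory G protein subunit, was higher with Nr2f6 loss alone than with αPD-L1 alone (1.03, 0.63 to 1.43, limma adjusted p = 0.0079). It had 5919, 5563 and 6261 normalized counts in Nr2f6-/- IgG2b samples and at most 3409 in Nr2f6+/+ αPD-L1 samples, with no overlap (as for 5.36% of all genes). The Gnai3 call was lost without Nr2f6-/- IgG2b replicate 1 (1.03, limma adjusted p = 0.0569) or 3 (0.99, limma adjusted p = 0.0732), and with the replicate block (0.90, limma adjusted p = 0.0837).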

How the data were processed

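The study's methods describe tumor CD3+ T cells, enriched on CD4 and CD8 beads, pooled and sorted, 3' mRNA libraries and Ion Torrent sequencing. The labels give 18 samples, all used here, although the study's own figure of these libraries names fewer αPD-L1 samples, and which it left out is not given in the sources used here. Per the labels and methods, the authors trimmed reads (Cutadapt, Trimmomatic), removed those under 22 nt, aligned to mm10 with STAR and then Bowtie2, counted primary alignments per gene with HTSeq and normalized with DESeq2. Versions and the strand setting are not given in the sources used here. The deposited values are a signal: read counts divided by a size factor (0.823 to 1.22). Dividing by each library's smallest step gave whole reads for 100% of values (tolerance 0.01). No pair of the 153 had identical values. A 3' kit counts transcript ends. No test compared levels between genes, and marker sums and Cxcr6 per unit of the CD8 sum were compared between groups.

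The main test was limma 3.58.1 (R 4.3.3) on log2(value + 1), one mean per group over all 18 samples, genes averaging 10 or more, with Benjamini-Hochberg adjustment. The size factors mean these are not raw counts, so edgeR 4.0.16 and DESeq2 1.42.0 ran on the recovered reads as alternatives. Other alternatives were pseudocounts of 0.5 and 10, no filter or a mean of 50, quantile normalization, equal totals, only the compared groups, library set as a term or alone, replicate block, sample weights and leaving out each sample. The scripts were tested on simulated data. The labels do not say that replicates came from separate mice, so p-values measure the spread between samples, which may be technical. Floors cover counting error only. All receptors, every called gene of the related lists (otherwise up to 3 with the highest mean) and the 3 genes most correlated with each receptor could be named. Members and lists were chosen with earlier results of these data known. Some genes of the lists are not reported here.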

Additional observations from a re-analysis of the deposited data

Results flagged for a closer look

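Ccr4 in Nr2f6-/- αPD-L1 replicate 4 stood apart from the other 5 samples of its group, with 23.0 normalized counts against 0 to 8.5. Its gap to the next sample was 0.630 of the whole range of the group, above Dixon's critical value for 6 samples. This was 1 flag in 18 groups of 6 samples examined. Chance gives about 1 in 20 for normally distributed values. That rate cannot be taken over here, because 4 of the 6 samples were under the 3-read floor. No receptor moved one way in all αPD-L1 samples of one genotype and the other way in all those of the other genotype.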

How the results depend on the processing

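The number of receptors called was 0 in each comparison and stayed 0 under most alternatives. For αPD-L1 in Nr2f6-/- mice and for the combination, 1 and 1 receptors (Cxcr6) were called with the library set as a term, with the replicate block and by DESeq2, and 1 and 2 (Cxcr6 and Ccr1) with sample weights. With weights Cxcr6 gave 0.77 and 0.69 (limma adjusted p = 0.0475 and 0.0153) and Ccr1 -4.84 in the combination (limma adjusted p = 0.0442). Leaving out any 1 sample gave 0 receptors in every comparison. The causes were not tested.

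Over 47 receptor results, 596 of 614 other alternative values kept their direction, 9 passed the threshold and 18 reversed. For Nr2f6 loss under αPD-L1, Cxcr3 became 0.01 (quantile), 0.01 (equal totals), 0.68 (first set), 0.13 (weights), 0.05 (edgeR) and 0.04 (DESeq2), Cx3cr1 0.00 (equal totals) and 0.02 (first set), Ccr4 0.40 (first set), and in the second set Ccr6 0.28 and Cxcr4 -0.07. For the combination, Cxcr5 became 0.34 (quantile) and Cxcr3 0.30 (first set). For αPD-L1 in Nr2f6-/- mice, Cxcr3 became 0.34 (first set) and Ccr2 -0.03 (edgeR) and -0.04 (DESeq2), and in Nr2f6+/+ mice Ccr6 became 0.03 (edgeR) and 0.02 (DESeq2).

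With 1 sample left out, 17 results reversed at least once, none of them past the threshold. Their log2 ranges for αPD-L1 in Nr2f6+/+ mice were -1.67 to 0.16 (Ccr6), -0.47 to 0.05 (Cxcr3), -0.39 to 2.51 (Cxcr5) and -0.02 to 0.29 (Cx3cr1), and in Nr2f6-/- mice -0.48 to 0.38 (Ccr2), -0.46 to 0.04 (Cxcr3) and -0.47 to 2.17 (Cxcr5). For Nr2f6 loss they were -0.63 to 0.24 (Ccr2), -0.74 to 3.32 (Ccr4) and -0.29 to 0.24 (Cxcr3) under IgG2b, and -0.01 to 0.45 (Ccr2), -0.15 to 0.17 (Cxcr3), -0.02 to 0.48 (Cxcr4) and -0.14 to 0.14 (Cx3cr1) under αPD-L1. For the combination they were -0.48 to 0.04 (Cxcr3), -2.16 to 0.74 (Cxcr5) and -0.03 to 0.28 (Cx3cr1).

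Groups share replicate numbers, but samples with the same number did not deviate together (r = -0.0292 to 0.0366 over 21 pairs, against -0.0458 to 0.0632 over 96 pairs with other numbers), so the numbers were not taken as pairs. With the replicate block, Cxcr6 gave 0.95 (limma adjusted p = 0.0363) for αPD-L1 in Nr2f6-/- mice and 0.86 (limma adjusted p = 0.0399) for the combination.

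Over all genes, the calls by limma and their range over the alternatives that kept every sample or a whole library set were 29 (12 to 94) and 39 (8 to 230) for αPD-L1 in Nr2f6+/+ and Nr2f6-/- mice, 0 (0 to 88) and 21 (0 to 184) for Nr2f6 loss under IgG2b and αPD-L1, 74 (41 to 300) for the combination, 55 (16 to 281) for Nr2f6 loss alone against αPD-L1 alone and 0 (0 to 76) for the difference of responses. Leaving out 1 sample moved these counts too. Without Nr2f6+/+ IgG2b replicate 1, 2 or 3 they were 10, 8 and 6 for αPD-L1 in Nr2f6+/+ mice and 22, 10 and 15 for the combination, and without Nr2f6-/- IgG2b replicate 1, 2 or 3 they were 14, 15 and 13 for αPD-L1 in Nr2f6-/- mice and 20, 24 and 27 for Nr2f6 loss alone against αPD-L1 alone. The combination gave 45, 49 and 44 without Nr2f6-/- αPD-L1 replicate 2, 3 or 5, Nr2f6 loss under αPD-L1 gave 12 and 9 without Nr2f6-/- αPD-L1 replicate 1 or 2 and 11 and 13 without Nr2f6+/+ αPD-L1 replicate 4 or 5, and Nr2f6 loss alone against αPD-L1 alone gave 33 and 36 without Nr2f6+/+ αPD-L1 replicate 2 or 6. Of the 16 calls on ligand and signaling genes, 170 of 208 alternative values and 112 of 150 values with 1 sample left out stayed past the threshold, and 0 reversed. Ccr1, Ccr4, Ccr6 and Cxcr5 had samples under 3 reads beside samples of the same group with many more, and the spread between samples widens their intervals.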
